A study of Rattus norvegicus with 8 samples.

Results

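The transforming growth factor beta (TGF-beta) and bone morphogenetic protein (BMP) signaling genes examined in NNK-induced lung tumors were 10 rat genes taken by name: the ligands Tgfb1, Tgfb2, Tgfb3 and Bmp4, the receptors Tgfbr2, Tgfbr3, Bmpr2 and Acvrl1, and the inhibitory Smads Smad6 and Smad7. A probe was matched for 9 of these 10 genes, out of 13903 genes that could be named on the array. No probe matched Bmpr2, which was not analysed here. RNA had been hybridised to the Arraystar rat lncRNA array, a 1-colour Agilent oligonucleotide array that also carries mRNA probes, with 1 array per sample. The 8 samples came from male F344 rats at week 95 and were 3 lung tumor tissues, 3 matched normal lung tissues, 1 blood clot of the NNK treatment group and 1 blood clot of the control group. NNK is a carcinogenic nitrosamine of tobacco smoke. Both lung groups were from NNK-treated rats, so the normal lung tissues had been exposed to NNK as well, and lung tissue of control rats was not analysed here. For the blood array labelled NNK, the title and tissue give blood while its description repeats that of lung tumor 3, and it was used as blood. Red blood cell markers, as summed linear signal, were at 3282000 in the control clot and 3244000 in the NNK clot. These sums rest mostly on very bright probes, and Hbb, Hbb-b1 and Alas2 had the same intensity, 659600, in the NNK clot. Hbb was at log2 19.33 on both arrays after normalization, so near-equal sums say little about a difference. Of the dimmer markers, Ahsp was 1.79-fold, Slc4a1 1.76-fold and Epb42 1.35-fold lower in the NNK clot. Of 9 markers of type 2 alveolar cells, 6 were well above background in the control clot and 8 in the NNK clot, with summed signals of 47530 and 49470. The surfactant gene Sftpc was so on neither array. Most of both sums came from 1 gene, Nkx2-1, with log2 signals of 15.41 in the control clot and 15.31 in the NNK clot. Below it markers went both ways, with Napsa 2.89-fold higher and Sftpd 2.24-fold lower in the NNK clot.

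TGF-beta and BMP ligands are secreted dimers. They bring together type 1 and type 2 serine/threonine kinase receptors, which phosphorylate the receptor-regulated Smads, and these enter the nucleus with the common Smad, Smad4, and change transcription. The inhibitory Smads, Smad6 and Smad7, are themselves induced by the signal and feed back on it, Smad6 mainly on the BMP branch and Smad7 on both. In the lung the pathway is known for branching morphogenesis, for the extracellular matrix and for the vascular endothelium, where Acvrl1 is the type 1 receptor for BMP9, the product of Gdf2. In epithelial tumors TGF-beta is known both to restrain growth early and to favour invasion later.

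In the lung tumor tissues Tgfb2 was up-regulated, and Acvrl1, Smad6 and Smad7 were down-regulated. Log2 signals were normalized over the 6 lung arrays by quantiles and tested with limma, and a gene was called where the Benjamini-Hochberg adjusted p over the probes tested was at most 0.05 and the fold change at least 2. Of the 9 genes, 7 passed the filter on dim probes, which kept a probe if 3 or more of the 6 lung arrays gave a signal well above background. Each gene had 1 probe in 1 spot, and the scanner software had marked many of these spots as outliers. Marks were more frequent on the tumor side. Of the spots well above background, 4.92% to 8.62% were marked on the normal lung arrays and 15.9% to 25.3% on the lung tumor arrays. With marked spots left out only Tgfb1 and Tgfb3 could be tested, and limma called 0 of these 2 genes. At that setting 13.5% of 12471 probes were called higher in lung tumor and 15.5% lower. Of the 2 genes, 1 had an unadjusted p under 0.05, and the methods' t-test called 0. A limma adjusted p of at most 0.05 was reached by 1 of the 2 genes and by 65.1% of the probes. With marked spots kept, all 7 genes were tested and 1 was called higher and 3 lower. There 13.5% of 15803 probes were called higher and 14.4% lower. An adjusted p of at most 0.05 was reached by 6 of the 7 genes and by 66.1% of these probes, so that it was common on these arrays. The values that follow are log2 signals with marked spots kept.

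The arrays were not all equally distinct. Pairs of arrays were compared over probes with 3 spots, with the trend over signal level removed. The mean squared difference between the arrays was divided by the variance that the spread between spots of one probe gives it. This ratio was 0.816 to 1.37 for any pair of the 3 normal lung arrays. It was 0.582 for lung tumor arrays 2 and 3, which thus differed by less than the spot noise. For lung tumor array 1 against lung tumor arrays 2 and 3 it was 6.23 and 6.43. Each tested signaling gene is therefore also given with the 3 normal lung arrays counted as 1 sample and lung tumor arrays 2 and 3 as 1 sample, in a fit that takes the spread from the tumor samples alone and so assumes the same spread for normal lung. The 3 normal lung arrays and lung tumor array 1 were scanned together, and the other lung tumor arrays in another scan. Values within the first scan set the lone lung tumor array 1 against the 3 normal arrays and are given without a p. Across the lung arrays 72.3% to 76.5% of mRNA probes were well above background and 0 spots were saturated. In the study the lung tumor samples are called independent, each with its matched normal tissue, while the labels do not say that the tissues of one group came from separate rats, so the p values may measure only the spread between these arrays.

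The promoters of Tgfb2 and Smad7 are shown because these genes were called in opposite directions and the inhibitory Smads are classic feedback targets of the pathway. RefSeq promoters of the build GRCr8, 250 bases before to 50 bases after the annotated start, were matched for 8 of the 10 genes, and Acvrl1 and Smad6 were not among them. They are written 5′ to 3′ on the strand of the gene, with Tgfb2 at chr13:100792636-100792935 on the minus strand and Smad7 at chr18:71263258-71263557 on the plus strand. Capitals mark matches to the GC-rich Smad element GGCGCC, to the CAGA element CAGACA or to the palindromic Smad element GTCTAGAC, searched on both strands, of which the first and the last read the same on both.
Tgfb2: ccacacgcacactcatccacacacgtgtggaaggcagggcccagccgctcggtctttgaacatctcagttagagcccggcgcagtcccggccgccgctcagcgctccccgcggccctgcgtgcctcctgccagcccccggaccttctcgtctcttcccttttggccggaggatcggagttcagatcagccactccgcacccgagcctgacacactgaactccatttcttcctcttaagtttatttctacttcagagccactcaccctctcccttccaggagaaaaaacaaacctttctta
Smad7: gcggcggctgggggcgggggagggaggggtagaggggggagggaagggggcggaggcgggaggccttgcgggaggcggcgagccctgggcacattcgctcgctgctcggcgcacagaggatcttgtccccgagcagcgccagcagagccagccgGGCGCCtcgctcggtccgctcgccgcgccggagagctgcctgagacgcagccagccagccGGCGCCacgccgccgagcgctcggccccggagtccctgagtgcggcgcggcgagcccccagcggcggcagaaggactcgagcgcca
The Smad7 promoter held 2 copies of GGCGCC, starting 96 and 36 bases before the start, and the Tgfb2 promoter held none of the 3 motifs. Of the other promoters matched, that of Tgfbr3 held 1 GGCGCC and that of Bmp4 held 1 CAGACA on the opposite strand, and those of Tgfb1, Tgfb3, Tgfbr2 and Bmpr2 held none. Among 33469 rat promoters of the same length, 11% held GGCGCC, 21.1% held CAGACA and 0.197% held GTCTAGAC. A match describes the letters only, and no binding was measured.

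Among the ligands, Tgfb2, which is best known from epithelial and mesenchymal development, was the one called. Its log2 signal was 12.75, 12.61 and 12.72 on the normal lung arrays 1 to 3 and 14.57, 14.40 and 14.50 on the lung tumor arrays 1 to 3. Each tumor array was above each normal array, and neither group spread by as much as the gap between them. Tgfb2 was 3.47-fold higher in lung tumor (log2 fold change 1.80, standard error 0.072, limma adjusted p = 1.46e-05). The difference within the matched pairs was 1.82, 1.79 and 1.78 on the log2 scale for pairs 1 to 3. With these arrays counted once the log2 fold change of Tgfb2 was 1.82 (adjusted p = 0.032), and within the scan that held lung tumor 1 and the normal arrays it was 1.88. The spots of Tgfb2 on lung tumor arrays 2 and 3 were marked as outliers, and that on array 1 was not.

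Tgfb3, the isoform known for palate and lung development, was lower by less than the 2-fold threshold. Its log2 signal was 11.74, 11.64 and 11.64 on the normal lung arrays and 11.48, 11.45 and 11.26 on the lung tumor arrays. The groups did not overlap but lay close together. The log2 fold change was -0.28 (standard error 0.078, limma adjusted p = 0.0238), with no spot marked, and the adjusted p was 0.0248 with marked spots of other probes left out. The adjusted p of Tgfb3 rose to 0.428 with these arrays counted once.

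Tgfb1, the main isoform of inflammation and fibrosis, gave a dim signal. It was 4.04, 3.88 and 4.17 on the normal lung arrays, where 1 of 3 was well above background, and 4.999, 4.22 and 3.97 on the lung tumor arrays, where 3 of 3 were. Lung tumor 1 was highest, and lung tumor 3 lay inside the range of the normal arrays. The log2 fold change of Tgfb1 was 0.37 (standard error 0.28, limma adjusted p = 0.29), and this did not pass the test. It depended on the array: within the scan that held lung tumor 1 alone of the tumors it was 0.97, still under 2-fold, and after normexp background correction it was 0.05. With these arrays counted once it was 0.52 (adjusted p = 0.492).

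Bmp4, a BMP ligand of distal lung epithelium and mesenchyme, was 10.94, 10.78 and 10.77 on the normal lung arrays and 11.74, 11.29 and 11.18 on the lung tumor arrays. The groups did not overlap, and lung tumor 1 was again the highest. The log2 fold change of Bmp4 was 0.57, or 1.49-fold (standard error 0.16, limma adjusted p = 0.0245), which is under the 2-fold threshold. All 6 spots of Bmp4 were marked as outliers. The log2 fold change was 0.91 within the scan that held lung tumor 1, 0.20 after normexp (adjusted p = 0.495) and 0.66 with these arrays counted once (adjusted p = 0.24).

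**Figure D1:**
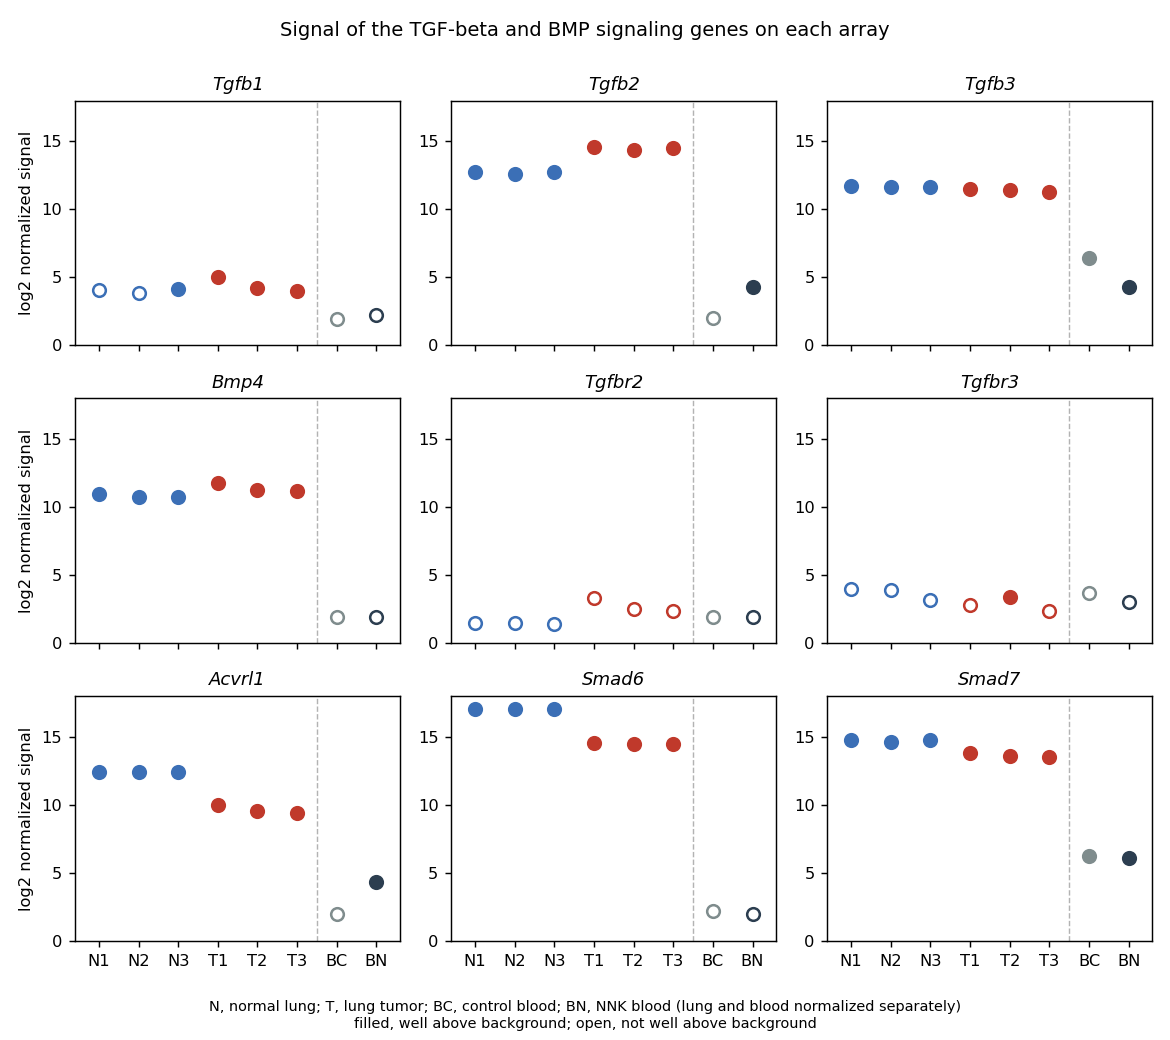
Log2 normalized signal (y axis) of the 9 genes with a matched probe on each array (x axis), with 1 point per array and lung and blood normalized separately. Filled points were well above background. Tgfb2 sat between 14.40 and 14.57 in lung tumor, above the normal lung arrays, whereas Acvrl1, Smad6 and Smad7 sat below them.

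Of the receptors, Acvrl1, a type 1 receptor of endothelial cells also called Alk1, was strongly down-regulated. Its log2 signal was 12.42, 12.42 and 12.41 on the normal lung arrays and 9.97, 9.56 and 9.40 on the lung tumor arrays. The normal arrays were nearly equal, and each tumor array was far below them. Acvrl1 was 6.82-fold lower in lung tumor (log2 fold change -2.77, standard error 0.15, limma adjusted p = 4.21e-05). Within pairs the differences were -2.45, -2.86 and -3.01 on the log2 scale. Counting these arrays once gave Acvrl1 a log2 fold change of -2.69 (adjusted p = 0.032), and within the scan that held lung tumor 1 it was -2.44. All 6 spots of Acvrl1 were marked as outliers.

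Tgfbr2, the type 2 receptor that binds TGF-beta, and Tgfbr3, the coreceptor betaglycan that presents TGF-beta 2, could not be compared. Tgfbr2 was not well above background on any of the 6 lung arrays, and Tgfbr3 was so on 1 of 6, lung tumor 2. Measured log2 values of Tgfbr2 ran from 1.42 to 1.47 on the normal lung arrays and from 2.35 to 3.32 on the lung tumor arrays. Those of Tgfbr3 ran from 3.20 to 4.02 and from 2.36 to 3.43. Neither gene was tested.

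Both inhibitory Smads were down-regulated. On the log2 scale Smad6 measured 17.04, 17.05 and 17.05 in normal lung and 14.55, 14.45 and 14.46 in lung tumor. The spread within each group was small beside the gap between them. Smad6 was 5.90-fold lower in lung tumor (log2 fold change -2.56, standard error 0.054, limma adjusted p = 3.4e-06). The pairs gave -2.49, -2.60 and -2.59 on the log2 scale. Counting these arrays once gave Smad6 -2.55 (adjusted p = 0.0283), and within the scan that held lung tumor 1 it was -2.50. The 3 lung tumor spots of Smad6 were marked as outliers and the normal lung spots were not.

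Smad7, which recruits ubiquitin ligases to the TGF-beta receptor, was 14.78, 14.66 and 14.77 on the normal lung arrays and 13.85, 13.62 and 13.53 on the lung tumor arrays. The groups did not overlap, and lung tumor 1 was nearest to the normal arrays. Smad7 was 2.10-fold lower in lung tumor (log2 fold change -1.07, standard error 0.099, limma adjusted p = 0.000324), just past the 2-fold threshold. Within pairs the differences were -0.93, -1.03 and -1.24. The fold change was under 2-fold within the scan that held lung tumor 1 (log2 fold change -0.88) and without lung tumor 3 (-0.999, adjusted p = 0.00145), and counting these arrays once gave -1.02 with an adjusted p of 0.0837. All 6 spots of Smad7 were marked as outliers.

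**Figure D2:**
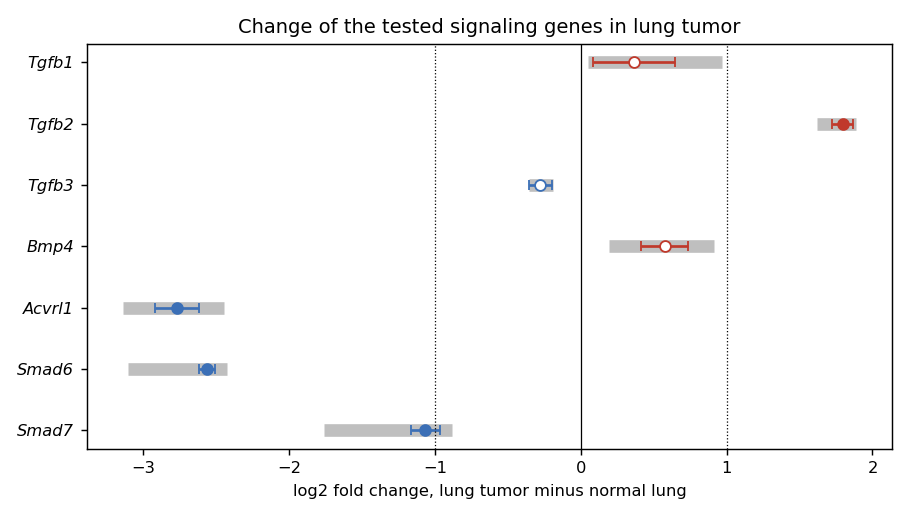
Log2 fold change of lung tumor over normal lung (x axis) for the 7 tested genes with marked spots kept, as points with the standard error from limma over 3 arrays per group. Filled points passed adjusted p and 2-fold (dotted lines), and grey bars span the values under the alternative settings, which for Smad7 ran from -1.76 to -0.88.

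Markers of endothelial cells moved in the same direction as Acvrl1, Smad6 and Smad7. Of 10 endothelial markers with a probe, 9 were tested with marked spots kept and 7 were called lower and 0 higher, with a median log2 fold change of -1.94 against 0.06 over the 15803 probes tested. With the 3 normal arrays, and lung tumor arrays 2 and 3, each counted as 1 sample, 5 were called lower. Their summed linear signal ran from 442200 to 451600 on the normal lung arrays and from 103100 to 106100 on the lung tumor arrays. The angiopoietin receptor Tek fell by 2.74 on the log2 scale (adjusted p = 3.05e-06), the endothelial transcription factor Sox17 fell by 2.81 (adjusted p = 3.33e-06), and the junction protein Pecam1 fell by 1.88 (adjusted p = 0.000556). Flt1 did not go along, with a log2 fold change of 0.50 (adjusted p = 0.0366). Its log2 signal was dim, at 3.59 to 4.08 in normal lung and 4.11 to 4.455 in lung tumor. It was well above background on 2 of the 3 normal lung arrays and on all lung tumor arrays. Cdh5, a defining marker, was not well above background on any lung array. The part of endothelial cells in the values of Acvrl1, Smad6 and Smad7 was not tested. In bulk tissue fewer cells of a type and less RNA per cell cannot be told apart.

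Markers of other cell types were counted as well, with marked spots kept. At that setting 13.5% of 15803 probes were called higher and 14.4% lower. Markers of type 1 alveolar cells were called lower for 5 of 8 tested and higher for 0, with summed signals of 1368000 to 1392000 in normal lung and 469100 to 481800 in lung tumor. Those of type 2 alveolar cells, which secrete surfactant, were called higher for 1 of 9 and lower for 0, with sums of 1181000 to 1236000 and 1390000 to 1445000. The type 2 gene called was Sftpc, whose spots were marked as outliers on 2 normal lung and 2 lung tumor arrays. Mesenchymal markers were called lower for 2 of 7, with sums of 234000 to 253700 and 184000 to 186900. Red blood cell markers were called lower for 6 of 8 and higher for 0, with sums of 439000 to 449200 and 263900 to 295200. Platelet markers were called lower for 4 of 6 and higher for 0, but their sum was higher in lung tumor, at 5282 to 5583 in normal lung and 7907 to 9189 in lung tumor, with the platelet chemokine Pf4 at 1.97-fold higher (adjusted p = 0.000203), under the threshold. Most of this sum came from Pf4, whose spots were marked as outliers on all lung arrays. Macrophage markers were called in neither direction for 6 tested. The part of these cells in the values of Tgfb2 and the other genes was not tested.

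**Figure D3:**
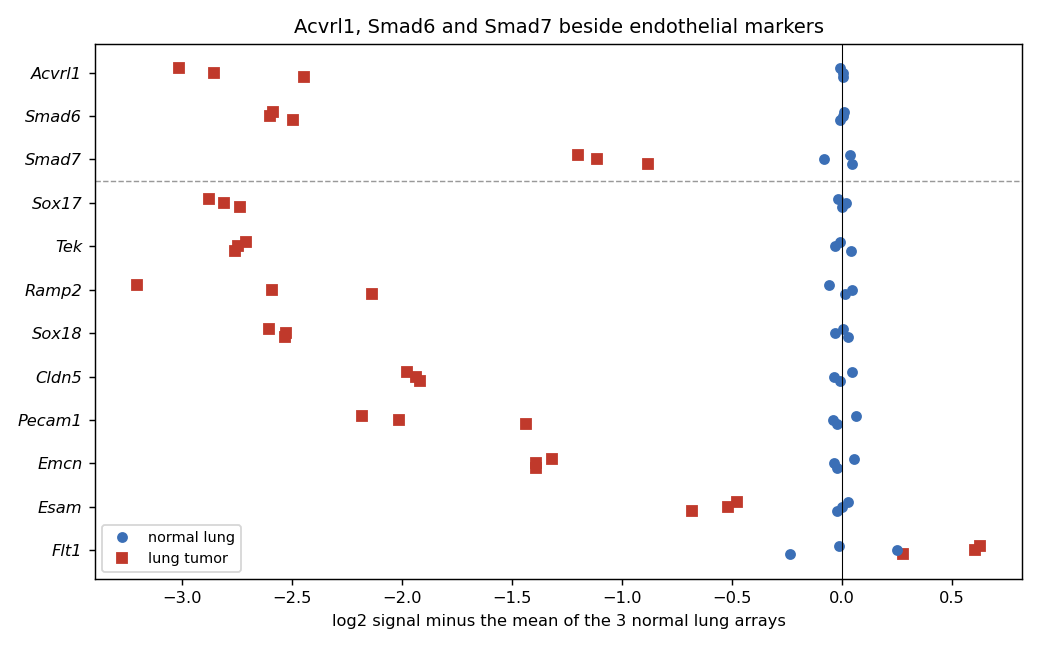
Log2 signal minus the mean of the 3 normal lung arrays (x axis) for Acvrl1, Smad6 and Smad7 and, below the dashed line, for the 9 tested endothelial markers, with 1 point per lung array. The tumor arrays of Acvrl1 and Smad6 sat in the range of Sox17, Tek, Ramp2 and Sox18, and those of Smad7 between Emcn and Esam.

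The rest of the pathway was read from lists of 87 further genes, of which 68 had a probe and 58 were tested with marked spots kept. Among these 8 were called higher and 11 lower, with a median log2 fold change of -0.12 against 0.06 over the probes tested. Of all 15803 probes tested at that setting 13.5% were called higher and 14.4% lower. These shares also stand beside the counts by role that follow, which come from short lists. With marked spots left out 40 were tested, 6 higher and 9 lower, beside 13.5% and 15.5% of 12471 probes. With marked spots kept, counting normal arrays 2 and 3 as 1 sample and lung tumor arrays 2 and 3 as 1 sample gave 8 called higher and 10 lower. There the calls of Gdf2 (higher) and Bmpr1b (lower) were lost, and Bambi was called higher instead. Counting all 3 normal arrays as 1 sample as well left 3 called higher, Acvr1c and Tgif1 among them, and 3 called lower, Bmper and Snai1 among them. The calls of the other pathway genes named here were lost at that last setting.

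Of 8 other BMP and activin ligands tested beside Bmp4, 3 were called higher and 1 lower. Bmp5 gave log2 signals of 10.23, 10.28 and 10.27 in normal lung and 12.20, 13.33 and 13.42 in lung tumor, a log2 fold change of 2.72 (limma adjusted p = 0.00103). Gdf2, which encodes BMP9, the ligand of Acvrl1, was 7.21, 7.28 and 7.18 in normal lung and 7.76, 9.44 and 9.81 in lung tumor, with lung tumor 1 well below the other tumor arrays (log2 fold change 1.78, adjusted p = 0.0315). The log2 fold change of Gdf2 was 0.54 within the scan that held lung tumor 1, and its call was lost when any 1 array other than lung tumor 1 was left out. Both probes also gave signal in blood. Before normalization Bmp5 read 8559 in the control clot and 8780 in the NNK clot, against 1161 to 1308 in normal lung. Gdf2 read 198.8 and 542.7 in these clots, against 125.1 to 152.3 in normal lung. The median signal was 11.81 on the control clot array and 32.02 on the NNK clot array, so these readings are not on one scale. After normalization the log2 difference of the NNK clot from the control clot was 0.53 for Gdf2 and -0.10 for Bmp5, both under 2-fold. What these probes measure was not tested. Bmp3, an antagonistic BMP, was 2.28-fold higher (adjusted p = 0.000867, all tumor spots marked), and Gdf15, a stress-induced member of the family, was 3.39-fold lower (adjusted p = 0.000231).

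Of 6 other receptors tested beside Acvrl1, Acvr1c, the nodal receptor Alk7, was called higher (log2 fold change 1.44, adjusted p = 2.24e-05) and the BMP receptor Bmpr1b lower (-1.25, adjusted p = 0.0116). The call of Bmpr1b was also lost with a shift to a common 75th percentile, normexp, the paired t-test and arrays scanned together as a block. Of 4 receptor-regulated and common Smads tested, Smad4 was 2.06-fold higher (adjusted p = 9.27e-05) and none was called lower. Smad4 was just past the 2-fold threshold. Its call was also lost with all 8 arrays normalized together, normexp, the authors' values and without lung tumor 1. Of 7 intracellular inhibitors tested beside Smad6 and Smad7, the corepressor Tgif1 was 2.63-fold higher (adjusted p = 2.38e-05) and none was called lower. Smad6 and Smad7 were the 2 of these 9 intracellular inhibitors that were called lower.

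Extracellular antagonists, which bind BMP ligands before they reach a receptor, were called lower for 4 of 12 tested and higher for 0, with a median log2 fold change of -0.86. Bmper was 4.63-fold lower (adjusted p = 0.000198) and Grem1 was 3.29-fold lower (adjusted p = 0.000357). Chrdl1 was also called lower, with a log2 fold change of -1.39, and fell outside the rule for naming genes and was named after its value was seen. Of 5 genes of latency and activation, Ltbp1, which holds latent TGF-beta in the matrix, was called lower with a log2 fold change of -1.21 (adjusted p = 0.000261), and none higher. The spots of Ltbp1 on 2 lung tumor arrays were marked as outliers, and its call was also lost with arrays scanned together as a block.

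Target genes of the pathway went in both directions. Of 9 TGF-beta targets tested, 1 was called higher and 2 lower. The transcription factor Snai1 was 3.32-fold lower (adjusted p = 1.2e-05) and the cell cycle inhibitor Cdkn2b was 2.18-fold lower (adjusted p = 6.84e-05). Of 7 BMP targets tested, Id2 was called higher (log2 fold change 1.78, adjusted p = 0.000933), and Msx1 (-1.49, adjusted p = 0.000323) and Id4 (-1.18, adjusted p = 0.000385) were called lower. The spots of Id4 on the lung tumor arrays and 2 of those of Id2 were marked as outliers.

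**Figure D4:**
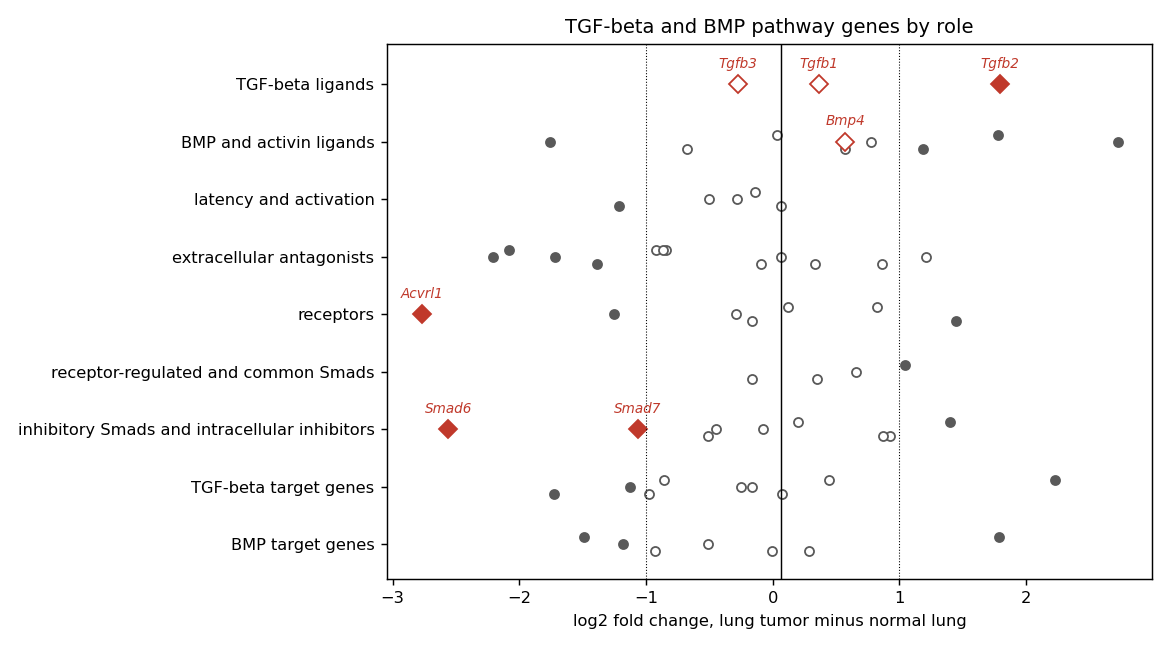
Log2 fold change of lung tumor over normal lung (x axis) for the pathway genes tested with marked spots kept, by role (y axis), with the named signaling genes as diamonds and the 58 others as circles. Filled symbols were called at adjusted p and 2-fold (dotted lines), and the solid line is the median over the probes tested, 0.06. The filled circles among the extracellular antagonists lie to the left.

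In blood there was 1 array in each group, so the differences between the NNK and the control clot have no replicate check and no test. These arrays were normalized together and apart from the lung arrays. Of the 9 genes, 4 gave a signal well above background on 1 or both blood arrays. A 2-fold difference or more was seen for 3 of them, 2 upwards and 1 downwards in the NNK clot, where 23.1% of 14452 probes lay 2-fold or more up and 19.1% lay 2-fold or more down.

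Tgfb3 was lower in the NNK clot, with a log2 signal of 6.40 in the control clot and 4.29 in the NNK clot, both well above background. This is 4.33-fold, a log2 difference of -2.11, and the alternative settings gave differences from -3.74 to -0.86. Before normalization Tgfb3 read 55.54 in the control clot and 32.07 in the NNK clot, where the median signals of the arrays were 11.81 and 32.02. The size of the difference thus depends on the normalization. The platelet markers, summed, were at 155400 in the control clot and 88660 in the NNK clot, and their part in the value of Tgfb3 was not tested. Smad7 was 6.24 in the control clot and 6.12 in the NNK clot, a log2 difference of -0.11.

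Tgfb2 and Acvrl1 were well above background in the NNK clot and not in the control clot. Tgfb2 had log2 signals of 2.00 and 4.29, and Acvrl1 of 1.95 and 4.37, in the control and the NNK clot. Against the lowest signal well above background on the control array, Tgfb2 was at least 1.66-fold higher and Acvrl1 at least 1.75-fold higher. The 2-fold difference of each thus rests on a control value that was not well above background. After normexp the log2 differences were 0.21 for Tgfb2 and 0.45 for Acvrl1. The endothelial markers, summed, were at 1118 in the control clot and 493.5 in the NNK clot. Tgfb1, Tgfbr2, Tgfbr3, Bmp4 and Smad6 were not well above background on either blood array.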

How the data were processed

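RNA of 8 samples was measured on 1-colour Agilent arrays. Per the file headers, Feature Extraction 10.5.1.1 made the deposited scanner files, whose processed signal is a background-subtracted intensity per spot. The authors also deposited a table of quantile-normalized log2 values made with GeneSpring, used here as an alternative. Quantile normalization of the log2 processed signal was done separately over the 6 lung arrays and the 2 blood arrays. R 4.3.3 and limma 3.58.1 (lmFit, eBayes, Benjamini-Hochberg) compared 3 tumor with 3 normal arrays. Probes well above background on at least 3 lung arrays, or at least 1 blood array, and with at least 2 values per lung group were tested. Spots marked as outliers were left out, and kept in a second fit, since the marks fell on most of the genes described. mRNA probes were named through RefSeq accessions of the assembly GRCr8 (14274 of 15321 matched), and no probe coordinates are given, as the file headers name another build. The labels call the numbered tumor tissues matched, and equal numbers were taken as pairs in the alternative with a block. Deviations from the group means correlated at 0.16, -0.01 and 0.16 within pairs. The genes described were all members with a probe, and in each role list up to 3 called genes per direction. Some of these are not reported here. Members and lists were chosen with earlier results of these data known. The test was checked on simulated data. The number of arrays limits the precision.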

Additional observations from a re-analysis of the deposited data

How the results depend on the processing

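Alternatives were other normalizations, normexp, filters on dim probes, the authors' values, the methods' t-test, blocks and each array left out. Combinations with marked spots kept, and the 3 normal arrays and tumor arrays 2 and 3 counted once, were chosen after seeing the data. No alternative reversed a tested gene. Marked spots decide what is testable: left out, 0 genes were higher and 0 lower, and kept, 1 and 3, as with the authors' values. Without a filter 1 gene was higher with marks out (Tgfbr2, dim on every lung array) and 2 with marks kept. With the replicate block, marks kept, 1 gene was higher and 3 lower, and Tgfb2 stayed at 1.80 (adjusted p = 0.000679), and the pairing changed no other call of these genes. Each array left out gave 1 higher and 2 to 3 lower. Smad7 was lost without lung tumor 3, with the slide as a block (arrays scanned together) and with those arrays counted once. The last setting left 3 other pathway genes higher and 3 lower with marks out or kept, and the authors' values gave 14 lower. It gave 778 probes higher and 976 lower with marks out and 1090 and 1347 kept. Normexp gave 967 higher and 1256 lower with marks out and 1362 higher kept. The paired form of the methods' t-test gave 1090 higher. In blood, normexp left 0 genes higher and 0 lower (1488 and 839 probes), and the stricter filter left 0 higher (2097 probes higher and 1733 lower). The cause of these differences was not tested. Signals near background limit Tgfb1 and the blood values.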
